A study of Mus musculus with 24 samples.

Results

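Smooth muscle contractile genes encode the actin, myosin and associated proteins with which smooth muscle cells shorten. The 10 described here are ACTA2 and ACTG2 (actins), MYH11 and MYL9 (myosin chains), MYLK (the kinase that switches the myosin on), CALD1, TPM1 and TPM2 (thin filament proteins), and SMTN and ACTN1 (cytoskeletal linkers). They were chosen by name with earlier results of these data known, so their counts set beside all genes below are description. Each was a single row among 7493 genes of an expression table over 24 libraries. Aorta, stomach, lung, heart, spleen, kidney, liver and brain gave 3 libraries each. All came from SENCR-BAC mice, whose transgene is a bacterial artificial chromosome holding the human gene SENCR. The sample titles read SENCR-BAC, while the table's column names carry SR-KI, which the labels do not explain. SENCR makes a long non-coding RNA antisense to FLI1. No animals lacking the transgene and no age are given in the labels, so every comparison below is between tissues of transgenic mice and none bears on the transgene itself. No source used here tells which libraries share an animal. The p-values thus reflect only the spread between these libraries, which may be technical.

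In smooth muscle, calcium bound to calmodulin activates myosin light chain kinase, which phosphorylates the regulatory light chain and lets myosin pull on actin, while a phosphatase removes the phosphate again. Vascular and visceral smooth muscle share this machinery, with alpha actin (ACTA2) typical of arteries and gamma actin (ACTG2) typical of the gut wall. Many of these genes are controlled by serum response factor, which binds an element called the CArG box.

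The table had a limit that shapes every value. Reads of mouse tissue had been counted on a human build (GRCh38.p13, per the submitters' processing notes), so only stretches alike enough between the species could be counted, and gene symbols are the human ones. Values were FPKM, fragments scaled to gene length and to the fragments assigned in the library, and were tested between tissues within a gene. Ratios between genes, sums over markers and ranks by abundance below are on this per-length scale and also carry how much of each gene could be counted on the human build, so of a ratio only its variation between tissues is read. FPKM values came in steps of 1 read, and the whole reads recovered from these steps totalled 193897 to 642306 per library. Behind the 10 genes stood very unequal numbers of reads over all 24 libraries: 159180 for TPM1, 4050 for ACTN1, 1359 for SMTN, 1073 for MYH11, 487 for MYLK, 412 for ACTG2, 117 for ACTA2, 106 for TPM2, 8 for MYL9 and 2 for CALD1. Where a library held no read of a gene, its count of 0 allows up to 3 reads, a limit for counting error only. In whole tissue, fewer cells of a type and less RNA per cell cannot be told apart.

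Both actins are nearly the same protein, and their mouse coding sequences were identical at 84.4% of 1131 aligned bases, with no identical run longer than 29 bases (longest open reading frames of GENCODE vM21, GRCm38). A stretch of 90 coding bases, from base 606 in Acta2 on chromosome 19 and from base 603 in Actg2 on chromosome 6, shows where the mouse sequences differ. It is given 5′ to 3′, with the 14 bases that differ in capitals.
Acta2: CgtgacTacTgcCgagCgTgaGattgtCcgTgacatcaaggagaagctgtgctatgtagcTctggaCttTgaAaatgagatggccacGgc
Actg2: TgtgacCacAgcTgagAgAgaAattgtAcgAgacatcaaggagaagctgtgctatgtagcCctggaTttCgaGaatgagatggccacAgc
Identical runs were longer between Acta2 and the non-muscle actins, at 47 bases with Actb and 56 with Actg1. They reached 65 bases between Myh11 and each of its non-muscle relatives Myh9 and Myh10, and 65 between Actn1 and Actn4. Reads were counted on the human build, whose sequences were not compared here. No source used here says how reads that fit several genes were counted, so levels of these close relatives are uncertain.

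RefSeq windows around the transcription start (250 bases before to 50 after, GRCm38.p6) were at hand for 8 of the 10 genes, 9 windows in all. The consensus of the CArG box, which reads alike on both strands, lay in 1 of these windows, that of Myl9, and in 1.63% of all 32851 windows. With 1 G or C allowed in its A/T core it lay in 2 of the 9, those of Acta2 and Myl9, and in 9.98% of all windows. The 120 bases holding the boxes are shown 5′ to 3′ for both genes, with the boxes in capitals.
Acta2 (chr19:34255374-34255493, minus strand): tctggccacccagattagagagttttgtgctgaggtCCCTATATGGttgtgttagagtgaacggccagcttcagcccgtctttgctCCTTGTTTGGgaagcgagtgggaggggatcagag
Myl9 (chr2:156775273-156775392, plus strand): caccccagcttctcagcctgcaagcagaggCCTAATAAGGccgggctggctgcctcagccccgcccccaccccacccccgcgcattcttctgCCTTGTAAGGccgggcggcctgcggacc
Counted from the RefSeq start that sets each window, the boxes began at -84 and -34 in Acta2 and at -161 and -99 in Myl9. In Myl9 the first is the full consensus. Other possible starts were not looked up. These matches are a description of letters, not of binding.

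The first question was where in the body each gene was read, beginning with the actins. ACTA2, the alpha actin of vascular smooth muscle, had 53.3, 47.6 and 44.0 FPKM in the aorta libraries, against 1.89, 4.99 and 2.05 in stomach and 1.20, 1.11 and 0 in lung. It was listed at 0 in all libraries of heart, spleen, kidney, liver and brain. Every aorta library lay far above every other library, and 110 of the gene's 117 reads came from aorta. The aorta mean of 48.3 ± 4.68 FPKM (SD, n = 3, as for all means below) was 16.2-fold that of stomach. It was at least 16.9-fold that of brain and at least 5.65-fold that of liver, taking 3 reads in the shallowest library of each as the upper limit.

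ACTG2, the gamma actin of visceral smooth muscle, took another order, with stomach first. Stomach libraries had 212, 192 and 165 FPKM, aorta libraries 53.0, 55.7 and 75.6, and lung libraries 11.5, 21.5 and 13.8. Spleen held 5 reads, liver 1, and heart, kidney and brain none. The groups of stomach, aorta and lung did not overlap, and each step was called in the test described below: aorta against stomach differed by -1.62, aorta against lung by 1.94 and lung against spleen by 2.59 on the log2(FPKM + 1) scale. Within a library, the FPKM ratio of ACTG2 to ACTA2 was 0.994 to 1.72 in aorta and 38.5 to 112 in stomach, where ACTA2 rested on 5 reads.

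MYH11, the smooth muscle myosin heavy chain, had reads in all 24 libraries, as did TPM1 and ACTN1. Its FPKM was 38.8, 34.8 and 46.5 in aorta, 29.4, 23.9 and 17.3 in spleen, 25.1, 19.0 and 13.9 in stomach and 21.2, 13.04 and 15.2 in lung. Means were 10.99 ± 2.53 in kidney, 9.70 ± 3.82 in liver, 4.20 ± 1.88 in heart and 3.58 ± 0.562 in brain. All aorta libraries lay above all others, but neighbouring tissues from aorta down to liver were not separated pair by pair: aorta against spleen differed by 0.76 (limma adjusted p = 0.0647) and stomach against spleen by -0.28 (0.582). MYH9, the non-muscle myosin heavy chain found in most cells, was read along with it. Over the 24 libraries the FPKM of the pair went together at r = 0.71, given as a description of libraries that share depth and sequence.

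The ratio of MYH11 to MYH9 within a library was higher in every aorta library than in any library of the other tissues except brain. It was 1.47 to 1.97 in aorta, against 0.387 to 0.629 in stomach and 0.255 to 0.352 in lung. In spleen it was 0.245 to 0.332, and in heart, with 31 and 95 reads of the pair, 0.238 to 0.429. In spleen, MYH9 averaged 79.5 FPKM, against 23.4 in aorta. Kidney and liver ratios ran from 0.299 to 0.773 and from 0.337 to 0.866, and brain, with 45 and 57 reads of the pair, from 0.556 to 1.52, so that its highest library overlapped aorta. MYH10, a further non-muscle heavy chain, was at 0.788 to 0.858 of the MYH11 FPKM in aorta, 0.016 to 0.127 in stomach and 3.41 to 6.14 in brain.

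**Figure D1:**
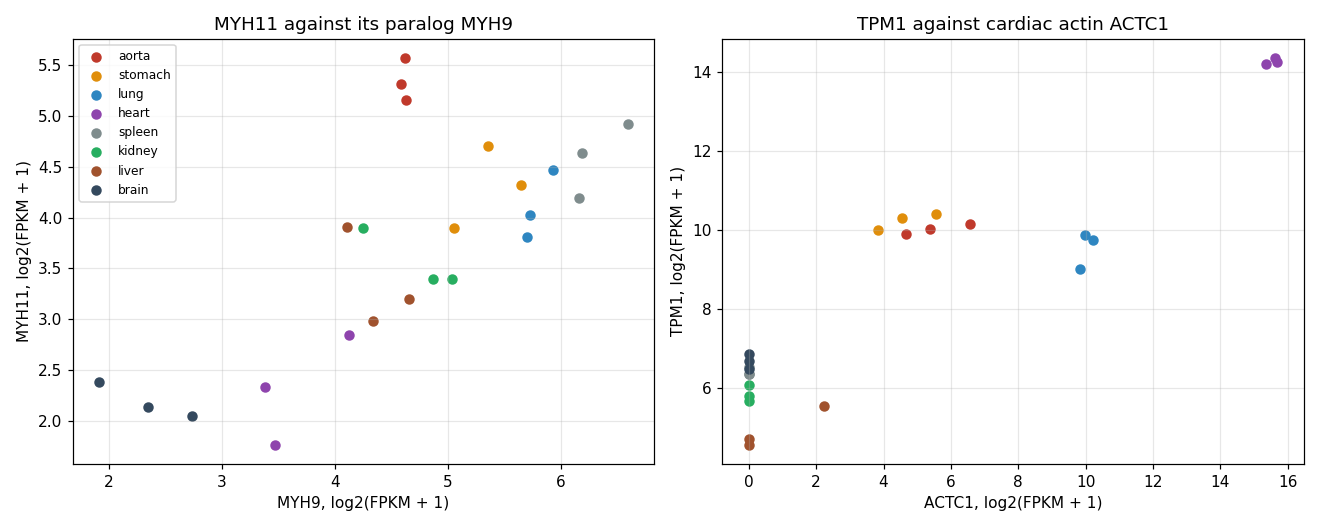
Left, MYH11 against its paralog MYH9; right, TPM1 against cardiac actin ACTC1; each point is 1 library, coloured by tissue, on log2(FPKM + 1) axes. The 3 aorta libraries lie above the others for MYH11 at a middling MYH9 level, while the heart and lung libraries stand to the right for ACTC1, with FPKM ratios of TPM1 to ACTC1 under 1.

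MYL9, the regulatory light chain that MYLK phosphorylates, and CALD1, the actin-binding inhibitor caldesmon, were close to the limit of detection. MYL9 had 2.59, 1.67 and 0.866 FPKM in aorta from 6 reads, 1.23, 0 and 0 in stomach from 1 read, and 0, 0.723 and 0 in lung from 1 read. No other library held a MYL9 read, and aorta and stomach libraries overlapped. CALD1 was listed at 0, 0.854 and 0.887 FPKM in aorta, 2 reads, and at 0 in the other 21 libraries. It did not reach the filter of the tests below; with that filter left out, aorta exceeded the other 7 tissues by 0.60 in log2(FPKM + 1) (limma adjusted p = 0.000455), under the minimum difference of 1 and on those 2 reads.

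MYLK, the calcium- and calmodulin-dependent myosin light chain kinase, had 14.1, 24.3 and 25.9 FPKM in aorta. Lung followed with 2.69, 11.8 and 4.78, and stomach with 1.82, 3.996 and 2.95. The aorta libraries lay above all others, the nearest being lung replicate 2. Kidney averaged 2.29 ± 0.322, and spleen, liver, heart and brain stayed at 1.17 FPKM or below in every library. Lung and stomach were not separated (stomach against lung -0.76, limma adjusted p = 0.174), nor were stomach and kidney (0.22, adjusted p = 0.789).

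TPM1, the alpha tropomyosin that lies along actin filaments in all muscle types, was by far the deepest read and was led by heart. Heart libraries had 18871, 21041 and 19718 FPKM, against 1279, 1359 and 1035 in stomach, 959, 1050 and 1142 in aorta and 862, 516 and 940 in lung. Heart stood alone, 16.2-fold above stomach on average. Stomach and aorta overlapped (aorta against stomach -0.22, limma adjusted p = 0.533), and aorta and lung were not separated either (0.49, adjusted p = 0.152). A large gap followed: brain averaged 102 ± 13.3 FPKM, spleen 84.0 ± 6.03, kidney 56.9 ± 8.52 and liver 31.1 ± 12.6. Since TPM1 is made by cardiac, skeletal and smooth muscle, its total does not tell these apart, and a gene-level value does not tell its muscle isoforms from its non-muscle ones.

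Summed cardiac markers were higher in lung than in aorta or stomach, whereas TPM1 was not. ACTC1, cardiac actin, averaged 1038 FPKM in lung, against 53.0 in aorta and 27.1 in stomach, and the FPKM ratio of TPM1 to ACTC1 was 0.568 to 0.928 in lung and 0.374 to 0.448 in heart, against 12.1 to 39.3 in aorta and 29.7 to 77.2 in stomach. Of 12 cardiomyocyte markers in the table, 8 had reads in lung, with a summed level of 972 to 1287 FPKM, against 50488 to 60731 in heart, 25.2 to 96.8 in aorta and 14.1 to 48.2 in stomach. Most of each sum was ACTC1 itself: without it the markers summed to 62.4 to 94.9 FPKM in lung, 6972 to 8385 in heart, 0.765 to 2.48 in aorta and 0.605 to 2.48 in stomach. TNNI3, TNNC1, CKMT2 and MYBPC3 were listed at 0 in lung. Skeletal muscle markers summed to 46.5 to 153 FPKM in lung, from 10 of 12 genes. Their part in the TPM1 level of lung was not tested.

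TPM2, the beta tropomyosin, lacked the cardiac peak of TPM1. It had 10.8, 27.1 and 32.4 FPKM in aorta, 6.12, 16.2 and 11.6 in stomach and 1.94, 4.51 and 5.58 in lung. Heart, spleen, liver and brain held 1 read each and kidney none. Aorta and stomach overlapped (0.95, limma adjusted p = 0.199), and stomach and lung did not, though that step also missed the threshold (1.28, adjusted p = 0.0839).

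SMTN, smoothelin, a protein of contractile smooth muscle stress fibres, was highest in aorta and next in heart. Its FPKM was 94.4, 83.4 and 135 in aorta and 52.1, 32.7 and 35.1 in heart, against 17.8, 17.8 and 19.4 in kidney, 15.4, 19.8 and 12.2 in stomach and 9.39, 21.6 and 12.6 in lung. Aorta lay above all other libraries and was separated from heart (1.36, limma adjusted p = 0.0350). Heart libraries lay above those of kidney, but that step missed the threshold (1.05, adjusted p = 0.0969). Kidney, stomach and lung overlapped. Spleen averaged 4.35 ± 3.13, liver 1.74 ± 1.79 and brain 0.464 ± 0.417.

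ACTN1, the alpha-actinin that crosslinks actin at adhesions and dense bodies, had 326, 430 and 423 FPKM in aorta. Next came spleen with 79.1, 72.4 and 57.2, lung with 75.8, 63.9 and 57.5 and stomach with 57.3, 71.7 and 40.4. The aorta libraries lay above all others, and aorta was separated from spleen by 2.48 (limma adjusted p = 1.04e-06), while spleen, lung and stomach overlapped. Liver averaged 27.4 ± 15.3, brain 15.3 ± 3.97, kidney 14.9 ± 1.88 and heart 11.8 ± 2.78. Set against its paralog ACTN4, ACTN1 was at 2.53 to 3.82 in aorta, 0.367 to 0.573 in stomach, 0.924 to 1.24 in lung and 1.21 to 2.52 in spleen.

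**Figure D2:**
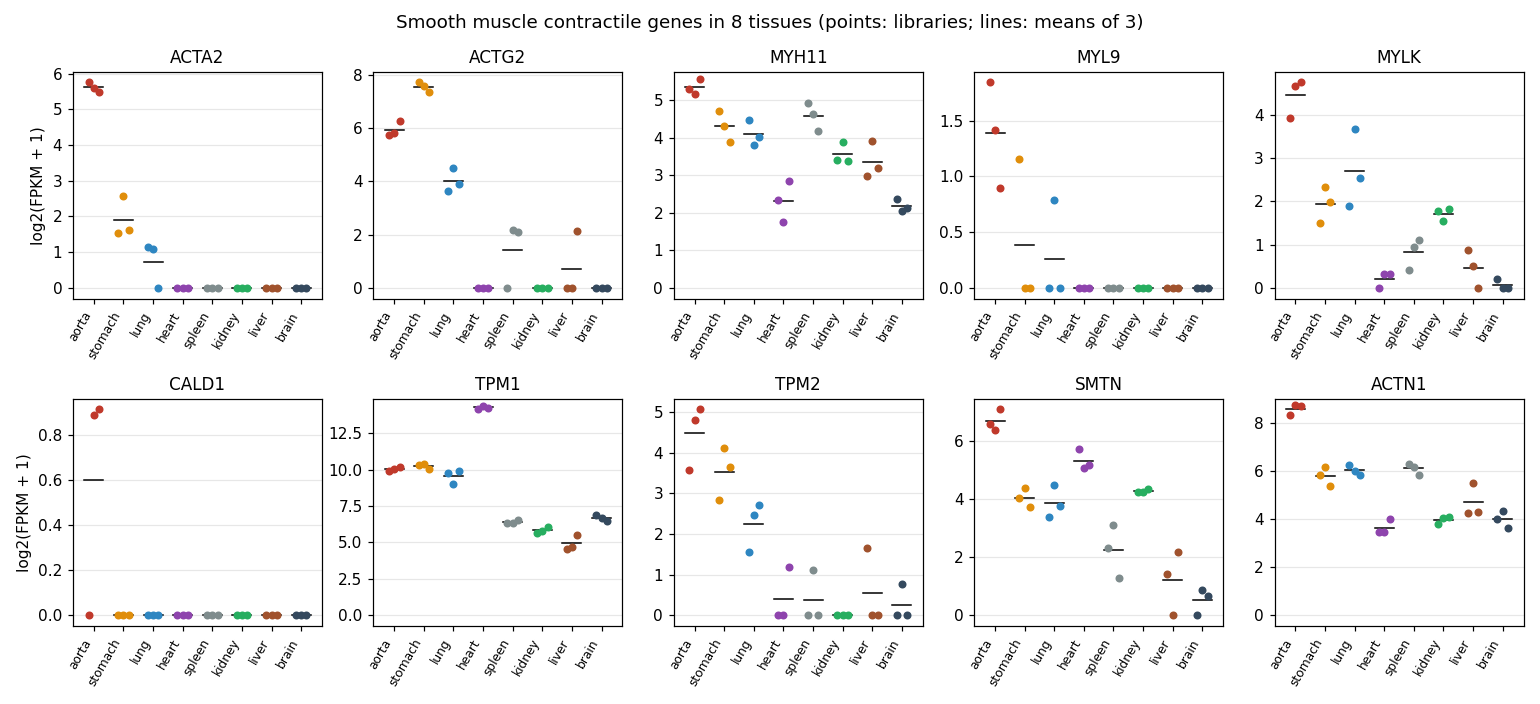
Level of the 10 contractile genes by tissue, in log2(FPKM + 1), each panel with its own vertical scale; points are libraries and lines are means of 3. Aorta is highest for 8 panels, stomach for ACTG2 and heart for TPM1, and the points of MYL9 and CALD1 rest on 8 and 2 reads.

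The next comparison put aorta against the other 7 tissues, taken as the mean of their 7 tissue means. Differences were taken on log2(FPKM + 1), fitted with limma over the 4260 genes that reached 1 FPKM in 3 or more libraries. To be called, a gene needed an adjusted p under 0.05 together with a difference of 1 or more in size. CALD1 did not reach the filter, and MYL9 reached it only just, through 2 aorta libraries and 1 of stomach, and would not have without either tissue. All 9 genes tested were called higher in aorta, where 9.58% of all genes were called higher and 8.19% lower. Their median difference was 3.43, and that of all genes was -0.18.

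By role, the actins differed by 5.24 for ACTA2 (SE 0.22, limma adjusted p = 4.08e-13) and 3.99 for ACTG2 (SE 0.39, 1.07e-07). The myosin chains differed less, MYH11 by 1.86 (SE 0.23, 3.27e-06) and MYL9 by 1.29 (SE 0.20, 4.03e-05). MYLK differed by 3.31 (SE 0.29, 2.75e-08). Of the tropomyosins, TPM2 differed by 3.43 (SE 0.39, 1.05e-06) and TPM1 by 1.76 (SE 0.17, 7.14e-08), although the other tissues included heart. The linkers differed by 3.71 for ACTN1 (SE 0.22, 6.99e-11) and 3.62 for SMTN (SE 0.36, 1.42e-07). Being on log2(FPKM + 1), these values understate the change of the low genes.

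A stricter reading asked for all 3 aorta libraries to lie above the 21 others. ACTA2, MYH11, MYLK, SMTN and ACTN1 met it, 5 of the 9 genes, against 2.56% of all genes. The highest tissue mean was in aorta for 7 of the 9, against 9.15% of all genes. Tissue by tissue, aorta was called higher for all 9 genes and lower for none against kidney (11.9% of all genes higher, 13.8% lower), liver (17.9% and 13.2%) and brain (12.9% and 24.3%). It was called higher for 8 and lower for none against lung (4.65% and 8.50%), where TPM1 was the exception, and against spleen (13.6% and 11.9%), where MYH11 was. Against heart it was called higher for 8 (16.2%) and lower for 1, TPM1 (6.50%).

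Fibroblast markers and, in aorta replicates 1 and 3, mitochondrially encoded genes were also highest in aorta. Fibroblast markers, 9 of 11 with reads, summed to 865 to 1032 FPKM there, against no more than 157 in any other library, with PDGFRA and TCF21 at 0. Endothelial markers, 4 of 7 with reads, were not: they summed to 150 to 278 FPKM in aorta, against 348 to 872 in lung. Lung had reads of 6 of the 7 genes, and heart, at 116 to 315 FPKM, of 4. The 484 to 1095 FPKM of spleen came from 1 gene, with KDR, TEK, ERG, CLDN5, ESAM and SOX18 at 0 there. Skeletal muscle markers summed to at most 2.86 in aorta. Mitochondrially encoded genes reached 838 and 582 FPKM in aorta replicates 1 and 3, against 10.8 in aorta replicate 2 and at most 35.6 in the other tissues. A fit with aorta replicate 2 as the only aorta library, assumed to vary like the other tissues, is given among the other settings below. It has no aorta spread of its own, and MYL9 held 2 reads in that library. The parts of the fibroblast markers and of the mitochondrially encoded genes in the result were not tested.

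**Figure D3:**
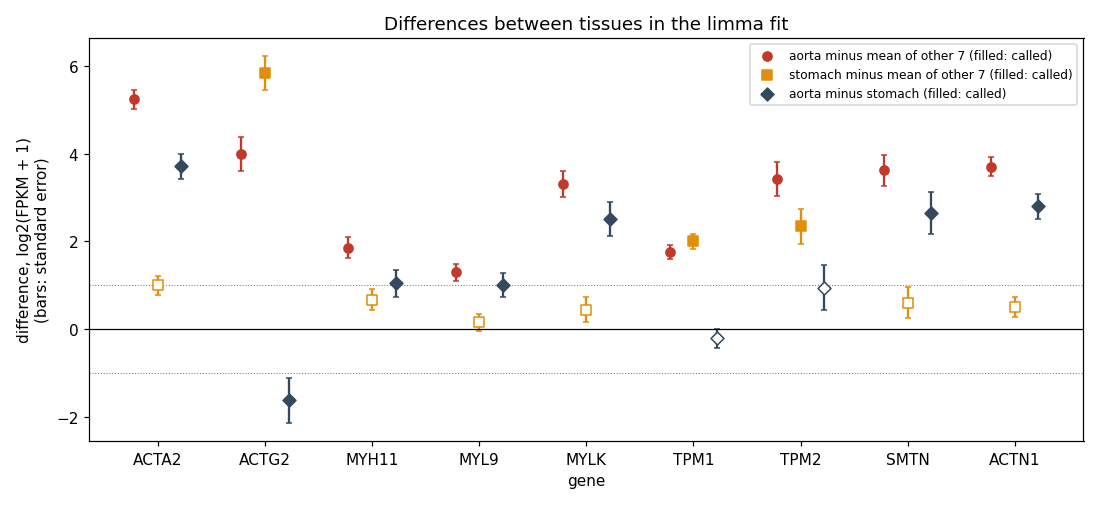
Difference of each tested gene in the limma fit on log2(FPKM + 1), for aorta minus the mean of the other 7 tissues, stomach minus the mean of the other 7, and aorta minus stomach; bars are standard errors, filled symbols are called and dotted lines mark differences of 1 and -1. All 9 genes are called for aorta, 3 for stomach, and ACTG2 is the gene below 0 in aorta minus stomach that is called.

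Stomach, whose wall is rich in visceral smooth muscle, was set against the mean of the other 7 tissues in the same fit. ACTG2 was higher by 5.84 (SE 0.39, limma adjusted p = 9.46e-10), TPM2 by 2.35 (SE 0.39, 0.000132) and TPM1 by 2.00 (SE 0.17, 1.66e-08). These 3 of 9 genes were called higher and none lower, where 7.65% of all genes were called higher and 5.87% lower. ACTA2 lay on the edge, with a difference of 0.9992 that fell just short of the minimum of 1 (adjusted p = 0.00148). It passed without stomach replicate 1 (1.19) or 3 (1.15), lung replicate 1 (1.03) or 2 (1.02), or aorta replicate 1 (1.01). MYH11 (0.67, adjusted p = 0.0380), SMTN (0.60, 0.235), ACTN1 (0.50, 0.0958), MYLK (0.44, 0.277) and MYL9 (0.15, 0.616) were not called. The mean of the other 7 contains aorta, which lowers these differences by construction. All 3 stomach libraries lay above the 21 others for ACTG2 alone, 1 of 9 genes, against 2.11% of all genes.

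Aorta and stomach were also compared directly, as the vascular and the visceral tissue of the series. ACTA2 differed by 3.71 (SE 0.28, limma adjusted p = 5.04e-09), ACTN1 by 2.80 (SE 0.29, 3.17e-07), SMTN by 2.64 (SE 0.48, 0.000240) and MYLK by 2.51 (SE 0.38, 4.15e-05). MYH11 (1.04, SE 0.31, 0.0149) and MYL9 (1.00, SE 0.27, 0.00696) passed narrowly, which made 6 genes higher in aorta, against 10.8% of all genes. ACTG2 was lower in aorta (-1.62, SE 0.51, 0.0221), the 1 gene of 9 against 10.5% of all genes. TPM1 (-0.22) and TPM2 (0.95) were not called. For ACTA2, MYH11, MYLK, SMTN and ACTN1 all aorta libraries lay above all stomach libraries, 5 of 9 genes against 16.4%.

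The calls of ACTG2, MYH11 and MYL9 between aorta and stomach depended on single libraries. Without aorta replicate 1, aorta replicate 2, stomach replicate 1 or stomach replicate 2, the adjusted p of ACTG2 was 0.0678, 0.0628, 0.0667 and 0.0549, with a difference of -1.61 to -1.53, and all 3 stomach libraries lay above all 3 aorta libraries throughout. MYH11 differed by 0.93 without aorta replicate 3 (adjusted p = 0.0645) and by 0.83 without stomach replicate 3 (0.0787). MYL9 fell under the minimum difference without aorta replicate 1 or 2 or stomach replicate 2 or 3 (0.77 to 0.99) and lost its call in a fit of the 6 aorta and stomach libraries alone (adjusted p = 0.193).

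The other tissues were each set against a mean of 7 that includes aorta. In lung, ACTG2 (1.77, limma adjusted p = 0.00146), MYLK (1.32, 0.00152) and TPM1 (1.20, 1.36e-05) were called higher, 3 of 9 genes against 11.9% of all, and none was called lower (3.64%). Heart had TPM1 (6.61, adjusted p = 2.80e-17) and SMTN (2.06, 0.000103) higher, 2 genes against 6.41%, and 6 lower against 17.4%, all but MYL9 of the rest. Spleen had 5 lower (13.5%) and none higher (11.5%), with MYH11 (0.99, 0.00184) and ACTN1 (0.87, 0.00301) just under the minimum difference. Kidney had 5 lower (8.12%) and none higher (9.77%), with SMTN at 0.86 (0.0710). Liver had 6 lower (17.3%) and brain 8 (10.5%), and neither had any higher (9.81% and 23.9%). In heart, spleen, kidney, liver and brain, ACTA2 was at 0 and counted among the lower genes by the same -1.18 in each. The mean it was set against came mostly from aorta, and a 0 allows up to 3 reads.

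Among themselves, the tested genes went together across the 24 libraries except for TPM1. The 28 pairs without TPM1 had r of 0.41 to 0.89 on log2(FPKM + 1), with a median of 0.71, and the 8 pairs with TPM1 had -0.06 to 0.66, with a median of 0.265. TPM1 went with ACTC1 at r = 0.92. These values describe libraries that share tissue and depth, and carry no test.

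The genes most like each member by tissue mean were looked up among 2994 genes with at least 5 FPKM in some tissue, by Pearson r over 8 tissues; CALD1, with 2 reads, is left out. ACTA2 was closest to DNM3OS, a non-coding RNA (r = 0.963), TWIST1, a mesenchymal transcription factor (0.957), and PDLIM3, a protein that binds actinin (0.945). MYL9, on 8 reads, was closest to the same 3. TPM2 was closest to PDLIM3 (0.968), and ACTG2 to PPARG, a nuclear receptor of fat cells (0.933). TPM1 was closest to heart genes, LDB3, a Z-disc protein (0.941), KCNK3, a potassium channel (0.925), and ACTC1 (0.923). MYLK was closest to HOTAIRM1 (0.964) and HOXA2 (0.957), a non-coding RNA and a transcription factor of the HOXA cluster, MYH11 to DAZAP1 (0.955), an RNA-binding protein, and SMTN to LTBP1 (0.892), which binds latent TGF-beta. ACTN1 was closest to CCNL2 (0.928), to mitochondrially encoded ND2 (0.915), whose level followed aorta replicates 1 and 3, and to PPP1R12A (0.907). Over the 24 libraries r was lower for every gene named here, down to 0.67 for ACTN1 with CCNL2.

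The wider contractile apparatus was read from 6 lists of related genes. Paralogs of the members came first, 14 of 23 tested: 6 were called higher and 5 lower in aorta against the other 7 tissues, where 9.58% of all genes were higher and 8.19% lower. Their median difference was 0.49, against -0.18 for all genes. MYL6, the essential light chain of smooth and non-muscle myosin, was the most abundant of them at 58208 ± 3796 FPKM in aorta, 26832 ± 1705 in stomach and 13159 ± 920 in lung, and differed by 2.74 (limma adjusted p = 5.12e-15). MYH10, read at 33.0 ± 6.39 FPKM in aorta and 0.843 ± 0.798 in stomach, differed by 2.88 (1.43e-06). The cardiac heavy chains MYH6 (-2.29, 1.45e-06) and MYH7 (-1.77, 9.13e-07) were lower in aorta, against a mean that includes heart. In stomach 5 paralogs were higher (7.65% of all genes), led by MYH14 (1.55, 0.00268) and MYL6 (1.47, 6.74e-11), and 3 lower (5.87%); their median was 0.56, against -0.08 for all genes. Between aorta and stomach directly, MYH10 (4.27, 4.09e-07) and MYL6 (1.12, 1.53e-07) were higher in aorta (10.8% of all genes), and MYH14 (-2.79, 0.000132) and TPM3, a further tropomyosin (-1.88, 2.02e-07), lower (10.5%).

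Of the genes that control contraction through calcium, kinases and phosphatase, 21 of 40 were tested, with 8 higher and none lower in aorta against the other 7 (9.58% and 8.19% of all genes) and a median difference of 0.67. PPP1R12A, the targeting subunit of myosin phosphatase, averaged 450 ± 61.3 FPKM in aorta and 92.0 ± 38.6 in stomach and differed by 3.02 (limma adjusted p = 8.88e-11). MYLK4, a relative of MYLK, averaged 7.97 ± 0.576 in aorta, was listed at 0 in stomach, and differed by 2.83 (2.00e-12). In stomach, with a median of -0.23, none was higher (7.65%), and ITPR1, the calcium release channel (-2.10, 8.05e-05), and ADRA1B, an adrenergic receptor (-1.65, 0.000136), were lower (5.87%). Directly, 10 were higher in aorta than in stomach (10.8%), among them MYLK4 by 3.16 (4.20e-11) and ITPR1 by 2.76 (7.65e-05), and none lower (10.5%). CALM2, a calmodulin gene, and RHOA, which restrains the phosphatase, were the most abundant, at 1463 ± 93.3 and 1007 ± 42.3 FPKM in aorta, and were not called there (0.49 and 0.67).

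Of transcriptional regulators of smooth muscle genes, 18 of 38 were tested. SRF, the factor of the CArG box, averaged 190.0 ± 27.5 FPKM in aorta, 137 ± 14.7 in stomach and 254 ± 30.8 in heart, and was not called in aorta (0.60, limma adjusted p = 0.00181) or stomach (0.07, 0.747). In aorta 5 were higher (9.58% of all genes) and none lower (8.19%), led by PRRX1 (3.54, 2.61e-06) and GATA6 (2.46, 5.10e-06). In stomach 7 were higher (7.65%), led by KLF4 (4.99, 1.31e-08) and BARX1, a factor of stomach mesenchyme (4.35, 7.75e-12), and 2 lower (5.87%), PRRX1 (-1.83, 0.00331) and MEF2C (-1.55, 2.22e-06). GATA6 was also called higher in stomach (1.88, 0.000146) and KLF4 in aorta (1.74, 0.00203). Median differences of the list were 0.52 in aorta and 0.09 in stomach. Aorta exceeded stomach in 4 of them (10.8%), among them PRRX1 (4.70, 2.85e-06) and MEF2C (2.16, 9.74e-07), and was below it in 3 (10.5%), among them BARX1 (-4.35, 3.46e-10) and KLF5 (-4.10, 1.03e-05). KLF4 and KLF5 are also made by epithelium.

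Focal adhesion and crosslinking genes, 15 of 30 tested, had 6 higher and none lower in aorta (9.58% and 8.19% of all genes), with a median difference of 0.83. ITGB1, the beta integrin of matrix receptors, averaged 105 ± 19.5 FPKM in aorta and 6.76 ± 11.7 in stomach and differed by 4.17 (limma adjusted p = 3.38e-05). CAVIN1, a coat protein of caveolae, differed by 3.19 (4.87e-07). In stomach, where the median was -0.17, PARVA, a partner of integrin-linked kinase, was the 1 gene higher (1.35, 0.0137; 7.65% of all genes), and ITGB1 was among those lower (-1.81, 0.0398). Directly, 7 were higher in aorta and none lower (10.8% and 10.5%), with ITGB1 higher by 5.23 (7.32e-05) and CAVIN1 by 2.73 (0.000115). The most abundant were CFL2, muscle cofilin, at 387 ± 5.67 FPKM in aorta, and ILK, integrin-linked kinase, at 230 ± 20.03 there.

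Splicing regulators that act on muscle exons, 12 of 15 tested, had 6 higher and 3 lower in aorta (9.58% and 8.19% of all genes), with a median difference of 0.865. RBPMS, an activator of smooth muscle exons, averaged 389 ± 51.1 FPKM in aorta and 89.1 ± 2.03 in stomach and differed by 2.64 (limma adjusted p = 1.06e-08), and MBNL1, the most abundant, by 2.15 (4.20e-14). ESRP1, an epithelial splicing factor (-1.93, 1.23e-05), and PTBP3 (-1.56, 0.000385) were lower in aorta and, in stomach, the 2 genes called higher (5.10, 2.86e-11, and 1.27, 0.00316; 7.65% of all genes). There, with a median of -0.51, QKI (-1.85, 2.47e-09) and RBFOX1 (-1.47, 1.25e-05) were among 3 lower (5.87%). Aorta exceeded stomach in 7 of them (10.8%), with MBNL1 at 2.38 (8.30e-13) and NOVA1 at 2.36 (1.46e-05), and was below it in 2 (10.5%), ESRP1 (-6.16, 8.93e-11) and PTBP3 (-2.47, 7.19e-05).

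Of 16 further smooth muscle markers, 2 could be tested. PDLIM3 averaged 15.1 ± 4.46 FPKM in aorta and 5.76 ± 2.54 in stomach and was higher in both (3.36, limma adjusted p = 5.10e-09, and 1.90, 1.36e-05). DES, the intermediate filament protein desmin of all muscle types, averaged 0.358 ± 0.620 FPKM in aorta from 1 read, 3.86 ± 1.96 in stomach and 17.998 ± 5.45 in heart. DES was lower in aorta (-1.07, 0.00697) and higher in stomach (1.03, 0.0115), both close to the minimum difference of 1. Each was set against a mean that includes heart. Direct comparison of aorta with stomach had PDLIM3 higher (1.28, 0.00763) and DES lower (-1.83, 0.00106).

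**Figure D4:**
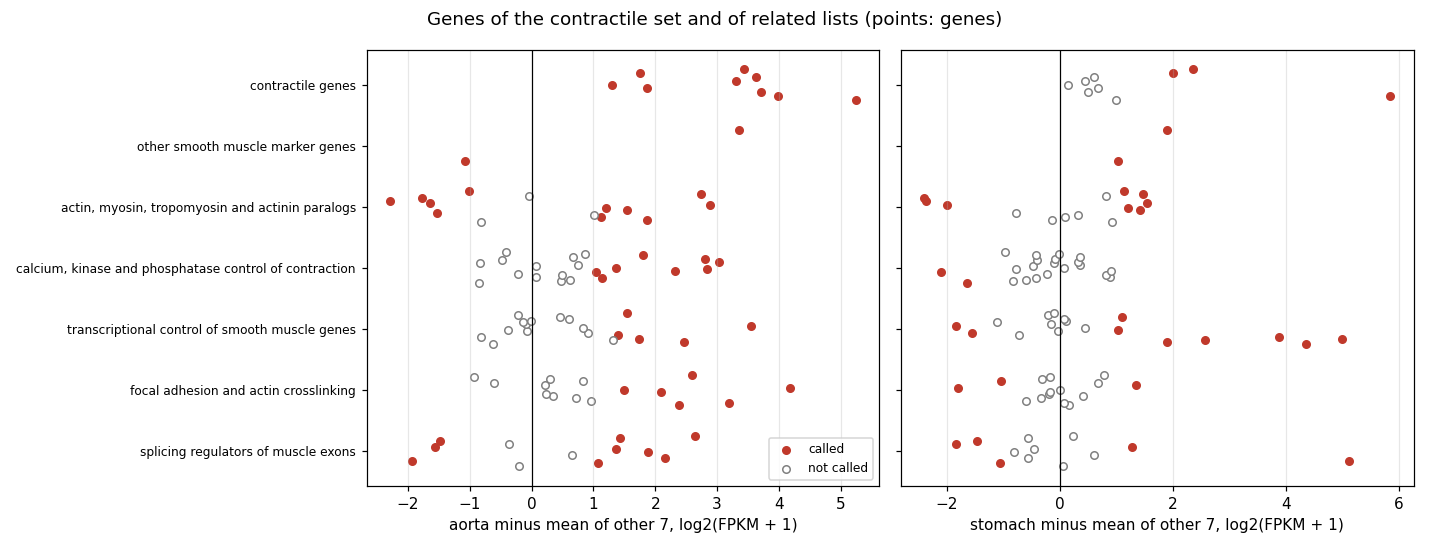
Difference of every tested gene of the contractile set and of 6 related lists, for aorta (left) and stomach (right) minus the mean of the other 7 tissues, on log2(FPKM + 1); filled points are called. The 9 contractile genes all lie to the right in aorta, from 1.29 to 5.24, while in stomach ACTG2 stands alone at 5.84 and KLF4, BARX1 and ESRP1 reach 4.35 to 5.10.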

How the data were processed

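Total RNA of 8 tissues, 3 libraries each, was, per the labels' protocols, extracted with TRIzol and prepared with a VAHTS Universal V10 kit for RNA-seq. Trimming with fastp, alignment with HISAT2 and counting with HTSeq used GRCh38.p13, per the submitters' processing notes. Versions, annotation and strand setting: not given in the sources used here. FPKM of 7493 genes in 24 libraries were deposited, and 0 columns belonged to no sample. Ignoring case, 91.4% of the symbols were also mouse symbols.

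Groups came from the sample titles. Reads were recovered from FPKM steps for 7489 genes (99.95%, relative tolerance 1e-08); counts with a common factor come out too low, so read numbers are minimums. They served to state depth and for an alternative, voom. Replicates correlated at r = 0.949 to 0.973 across genes, and no pair agreed within sampling noise (lowest chi-square over its degrees of freedom, 2.90).

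Values were tested as log2(FPKM + 1), with a pseudocount of 1, in limma with 8 tissue means and a trend of variance with mean. Benjamini-Hochberg adjustment ran over 4260 genes in each comparison. The fit was checked on simulated data. The members, lists and tests were chosen with earlier results of these data known. All members are named, and of each list the 2 genes with the largest differences in each direction among those called in each main comparison and the 2 most abundant; DES and PDLIM3 are named under both, and 1 gene that the rule selects is not reported here. MYH9, ACTN4 and ACTC1 were also used as partners in ratios. Promoters came from RefSeq and coding sequences from GENCODE. Python 3.11.15, numpy 2.4.6, pandas 2.3.3, matplotlib 3.10.9, Biopython 1.88, R 4.3.3 and limma 3.58.1 were used. The fit was repeated with a pseudocount of 0.1 or 5, without a filter, with one at 5 FPKM, with 3 other scalings, a replicate block, no trend, no minimum difference, a fit of 6 libraries, voom on recovered reads, and libraries left out.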

Additional observations from a re-analysis of the deposited data

How the results depend on the processing

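All 9 tested contractile genes were called higher in aorta than the mean of the other 7 with each library left out. In 12 other settings 8 or 9 were, MYL9 being lost with a pseudocount of 5 (0.39) and not tested with a filter at 5 FPKM. In stomach the 3 calls became 5 with no minimum difference, which adds ACTA2 and MYH11, and 3 to 4 when a library was left out; ACTA2 was called with a pseudocount of 0.1 (3.18), TPM (1.96), quantile normalization (1.04), voom (1.35) and aorta replicate 2 alone (1.0017). In aorta against stomach the 1 lower gene, ACTG2, became 0 with a pseudocount of 0.1 (limma adjusted p = 0.350) and TPM (0.144), and 0 to 1 with a library left out. The call of ACTG2 was also lost with aorta replicate 2 alone, where its difference was -1.74. The count of 6 higher genes was 4 to 6, MYH11 also being lost with a pseudocount of 5 (0.91), TPM (0.99) and aorta replicate 2 alone (0.85), and MYL9 with a pseudocount of 5 (0.31), quantile normalization (0.93) and voom (adjusted p = 0.115). The sign changed for MYL9 in stomach without stomach replicate 1 (-0.24, against 0.15; -0.24 to 0.34 over all libraries left out) and for TPM1 in aorta against stomach with median-ratio scaling (0.055, against -0.22). The causes were not tested.

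In the whole table, 408 genes were called higher and 349 lower in aorta than in the other 7, or 221 and 133 with a pseudocount of 5, 659 and 894 with no minimum difference, 399 and 607 with TPM, and 481 and 616 with voom. In stomach 326 and 250 became 163 and 75, then 588 and 588, with the same first 2 settings, and 309 and 373 with TPM. In aorta against stomach 459 and 448 became 253 and 277 with a pseudocount of 5, and 555 and 306 with median-ratio scaling. The median of all genes in aorta was -0.18, and -0.36 with TPM. The replicate block left every count of members as it was, and gave 411 and 346 genes in aorta. Residuals of same-numbered libraries correlated weakly, at -0.06 to 0.13 in 84 pairs (median 0.02), 2 of them above 0.1. Yet 20 of 24 libraries correlated best with their own number. Whether same-numbered libraries share an animal or a batch was not tested.

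Depth limits MYL9 and CALD1 everywhere, ACTA2 outside aorta (5 reads in stomach) and TPM2 outside aorta and stomach.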
